A study of Mus musculus with 6 samples.

Results

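Slc7a12, Slc7a13, Slc16a9, Aadat, Slc22a7, Slc22a30, Cyp7b1 and Acsm3, 8 genes known for the later proximal tubule (segments S2 and S3), were examined for open chromatin in its first segment, S1. The genes were taken by name, and every open region with its summit in the gene body or within 20 kb of it was kept. This gave 47 of the 99359 open regions found in all, at 8 of 21911 protein-coding genes. The data were 6 peak lists from ATAC-seq, which uses the Tn5 transposase to tag DNA that is not packed away. A library held 3 S1 tubules dissected by hand from wild-type (WT) male C57BL/6 mice aged 7 weeks. For 3 libraries the mice had undergone a sham operation (Sham), and for the other 3 a unilateral nephrectomy (UNx), the excision of 1 kidney, in each case 24 h earlier per the labels. The labels do not say whether the libraries of a group came from different mice, so the p-values measure only the spread between these libraries, which may be technical.

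The proximal tubule takes back most of the filtered glucose, amino acids, phosphate and protein, and its S1, S2 and S3 segments divide this work. S1 carries high-capacity uptake, such as the glucose transporter Slc5a2, whereas S2 and S3 are known for organic anion secretion, for the uptake of what S1 leaves behind and for parts of amino acid, fatty acid and sterol metabolism. Several genes of the later segments are also known to differ between male and female mouse kidneys. An open region marks DNA that regulatory proteins can reach, and it is not a measure of transcription.

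The strength of a region is given as its percentile within a peak list, by the authors' −log10 q. Values near 100 mark the strongest of the 77355 peaks used per list, and 0 means that no such peak was there. The promoter region of a gene is the strongest region with its summit within 1 kb of an annotated start. Sequencing depth is unknown because peak lists hold no read counts. A weak region in such a bulk library may be weakly open in every cell or open in few cells, and these cannot be told apart.

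Sequences were matched by symbol to RefSeq promoters (GRCm38.p6, from 250 bases before to 50 bases after the start), and 4 of the 8 genes had an entry. They are shown because the set runs from a CpG-rich promoter to one with no CpG. Capitals mark CG dinucleotides, and each sequence is written 5′ to 3′ on the strand of its gene.
Slc16a9 promoter, chr10:70245026-70245325, plus strand: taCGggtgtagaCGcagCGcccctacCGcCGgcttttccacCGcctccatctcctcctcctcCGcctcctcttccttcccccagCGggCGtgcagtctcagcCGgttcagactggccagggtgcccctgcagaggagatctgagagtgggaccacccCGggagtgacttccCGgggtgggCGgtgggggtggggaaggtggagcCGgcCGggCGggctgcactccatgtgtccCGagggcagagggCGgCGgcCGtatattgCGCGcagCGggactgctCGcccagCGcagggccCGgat
Aadat promoter, chr8:60505874-60506173, plus strand: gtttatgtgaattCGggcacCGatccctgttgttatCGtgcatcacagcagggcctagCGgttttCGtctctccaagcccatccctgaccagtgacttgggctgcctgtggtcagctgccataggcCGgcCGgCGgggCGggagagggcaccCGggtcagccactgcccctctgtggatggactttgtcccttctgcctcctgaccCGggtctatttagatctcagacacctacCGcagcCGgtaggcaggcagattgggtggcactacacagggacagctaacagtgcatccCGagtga
Acsm3 promoter, chr7:119760673-119760972, plus strand: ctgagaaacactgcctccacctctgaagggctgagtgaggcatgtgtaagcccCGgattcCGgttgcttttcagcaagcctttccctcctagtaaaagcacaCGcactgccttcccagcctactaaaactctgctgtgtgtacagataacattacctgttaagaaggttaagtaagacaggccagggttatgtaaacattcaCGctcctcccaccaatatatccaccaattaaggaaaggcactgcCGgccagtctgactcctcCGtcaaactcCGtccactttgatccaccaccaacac
Slc22a30 promoter, chr19:8405056-8405355, minus strand: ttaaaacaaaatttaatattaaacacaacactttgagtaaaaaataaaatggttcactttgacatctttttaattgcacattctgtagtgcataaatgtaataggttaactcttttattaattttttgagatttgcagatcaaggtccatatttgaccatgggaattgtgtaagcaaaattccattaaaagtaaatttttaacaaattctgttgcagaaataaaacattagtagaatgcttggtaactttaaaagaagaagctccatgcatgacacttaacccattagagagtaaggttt

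The Slc16a9 promoter held 26 CG dinucleotides at a GC content of 70.7%, and that of Aadat held 14 at 60.3%. Acsm3 had 7 at 50%, which is the median number of all 32851 RefSeq promoters, whose median GC content was 52.7%. The Slc22a30 promoter held 0 at 27.7% GC. Both CG-rich promoters lay in strongly open regions, at a mean percentile over the 6 lists of 90.5 for Slc16a9 and 94.9 for Aadat, and the region at the Slc22a30 start lay at 12.9. Strength did not follow the CG count throughout. Aadat lay above Slc16a9, and the region at the printed Acsm3 start lay at 9.92, below that of Slc22a30. Cyp7b1 had a CG-rich promoter region that was weak. The 300 bases around the summit of its promoter region held 24 CG dinucleotides at 67.0% GC, and the region had a mean percentile of 22.8.

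The strongest regions of Slc7a13 and Acsm3 lay upstream of the promoter, and the 300 bases around these summits were read from GRCm38 to show what an open distal region of these genes looks like. Capitals here mark a match to one of the short motifs searched.
Slc7a13 upstream region, chr4:19817053-19817352, plus strand: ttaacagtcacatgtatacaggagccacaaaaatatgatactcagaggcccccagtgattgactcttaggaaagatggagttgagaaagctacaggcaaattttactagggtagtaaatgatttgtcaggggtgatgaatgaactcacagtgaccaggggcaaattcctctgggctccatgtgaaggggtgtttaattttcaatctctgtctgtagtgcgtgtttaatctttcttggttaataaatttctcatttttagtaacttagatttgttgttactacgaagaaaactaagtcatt
Acsm3 upstream region, chr7:119745924-119746223, plus strand: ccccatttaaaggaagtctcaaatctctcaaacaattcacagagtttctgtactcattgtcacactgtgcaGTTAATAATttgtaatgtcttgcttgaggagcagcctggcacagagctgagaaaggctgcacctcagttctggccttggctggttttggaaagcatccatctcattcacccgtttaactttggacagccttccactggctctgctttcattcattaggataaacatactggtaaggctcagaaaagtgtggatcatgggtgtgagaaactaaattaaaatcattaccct

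The Acsm3 window held the letters GTTAATAAT from position 72, counted from 1 at its 5′ end, which match the motif of the HNF1 family of kidney and liver factors (GTTAATNAT). The Slc7a13 window held no match. Motifs were searched on both strands of the 300 bases around each summit. The HNF1 motif was found at 3 of the 38 tested regions of the 8 genes (7.89%) and at 3.65% of all tested regions. The HNF4 motif (CAAAGTCCA, which shares the letters CAAAG with AGGTCAAAG, a part of a direct repeat) was found at 3 of 38 and at 2.74% of all. Of these 3 regions, that at the Aadat start had its match, TGGACTTTG on the plus strand, inside the RefSeq promoter of Aadat from position 179. The HNF4 motif was in 0.475% of all RefSeq promoters. The steroid receptor motif (ACANNNTGT) was found at 4 of 38 regions and at 8.15% of all. Of these 4, the match at the Slc22a30 start lay inside its RefSeq promoter, as ACATTCTGT from position 78. This motif was in 6.85% of all promoters. The AP-1 motif (TGANTCA) and the STAT motif (TTCNNNGAA) were each found at 6 of 38 regions, against 9.88% and 9.32% of all. The C/EBP motif (TTGCNCAA) and the CTCF core (CAGGGGGCG) were at 0 of 38, against 3.09% and 1.65% of all. The ETS motif (CCGGAAGT) and AGGTCAAAG were each at 1 of 38, against 1.57% and 1.17%, and TATAAA was at 6 of 38, against 11.4%. Whether any share differed from that of all regions was not tested. Matches are descriptions of these letters, and no factor binding was measured.

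The promoters of the 8 genes covered nearly the whole scale in S1 tubules. In the Sham libraries Aadat stood at 92.4 ± 2.25 (SD, n = 3), Slc16a9 at 87.3 ± 2.46 and Slc22a7 at 66.6 ± 6.67. The other promoters were weaker, with Acsm3 at 34.0 ± 19.7, Slc7a12 at 30.1 ± 19.1, Cyp7b1 at 25.3 ± 13.5 and Slc22a30 at 17.4 ± 13.7. Slc7a13 had no promoter region in any list, also when all deposited peaks were used. Aadat and Slc16a9 lay apart from Slc22a7 by more than their spread, as did Slc22a7 from the weaker promoters, whereas Acsm3, Slc7a12, Cyp7b1 and Slc22a30 overlapped. For Slc22a7 and Acsm3 the rule took a region near a later annotated start. The regions at their first starts had Sham means of 14.4 and 18.7, so the place of Slc22a7 above the weaker promoters depends on this rule. The Aadat promoter was stronger than the promoters of 79.5% of protein-coding genes, Slc16a9 than 70.5%, Slc22a7 than 53.0% and Slc22a30 than 42.3%, where genes with no promoter region count as 0.

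**Figure D1:**
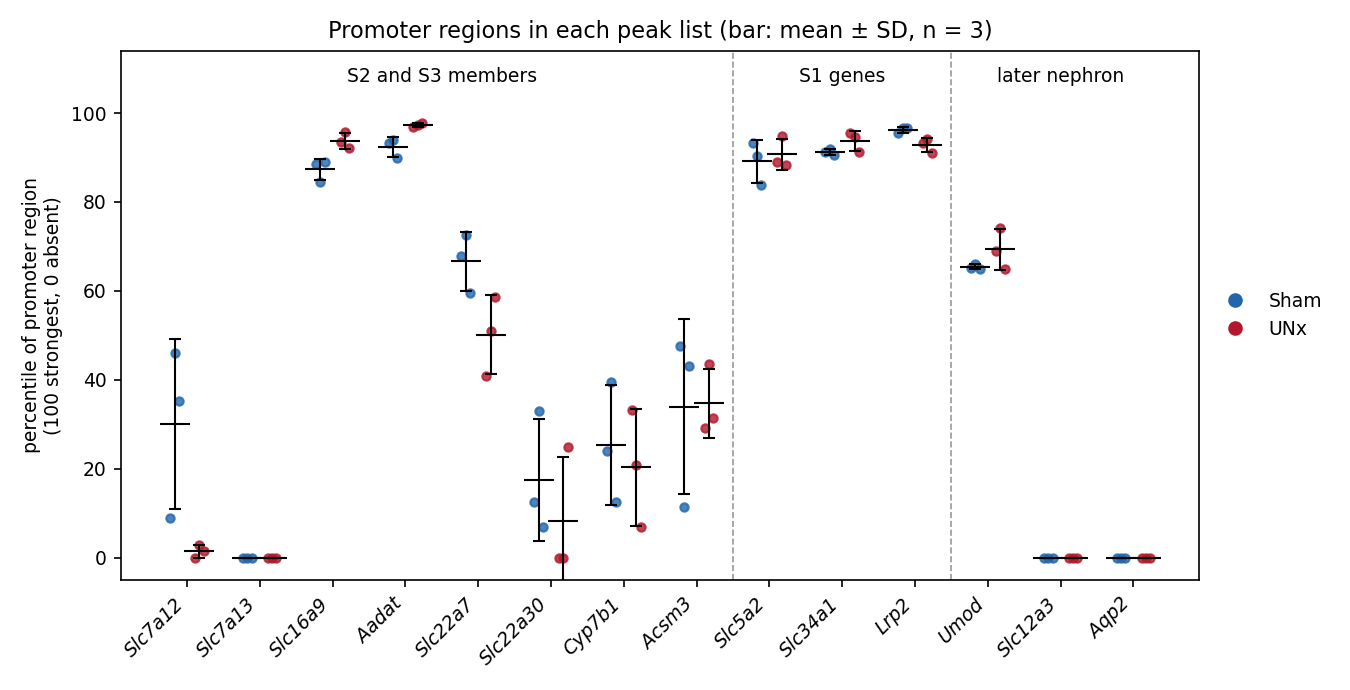
Percentile of the promoter region (vertical axis, 0 to 100, 0 for absent) in each of the 3 Sham (blue) and 3 UNx (red) peak lists for the 8 genes, 3 S1 genes and 3 genes of later nephron segments, with mean and SD. Aadat, Slc16a9 and the 3 S1 genes have Sham means from 87.3 to 96.2, whereas Slc7a13, Slc12a3 and Aqp2 are at 0 in all 6 lists. The 3 genes of later segments do not stand for their list of 12, in which 3 promoters not drawn here have Sham means of 81.5 to 93.0.

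The median Sham promoter percentile of the 8 genes was 32.1, beside 58.7 over all protein-coding genes and 90.0 over 12 S1 genes. These medians depended on the setting. With a promoter window of 2.5 kb they were 50.3, 65.6 and 90.0. Ranked by fold enrichment in place of −log10 q they were 46.4, 49.6 and 53.8, which lie much closer together. Among the 20000 strongest peaks they were 0, 0 and 61.3. Of the 8, 5 had a promoter region in all 6 lists (62.5%), beside 56.7% of all protein-coding genes and 12 of 12 S1 genes. Among the S1 genes, the glucose transporter Slc5a2 stood at 89.2 ± 4.79 in Sham, the phosphate transporter Slc34a1 at 91.2 ± 0.712 and the endocytic receptor Lrp2 at 96.2 ± 0.627. In genes of the loop, distal tubule and collecting duct the median was 32.1 and 6 of 12 promoters were in all 6 lists. This list held both ends of the scale. Scnn1g, a subunit of the epithelial sodium channel, stood at 93.0 ± 2.47 in Sham, Fxyd4 at 88.3 ± 1.56 and the water channel gene Aqp3 at 81.5 ± 1.79, each in all 6 lists and within the range of the S1 genes (named after their values were seen). Umod, the uromodulin gene of the loop, stood at 65.4 ± 0.624. Slc12a3 of the distal tubule and the water channel gene Aqp2 were at 0 in every list, as were the promoters of 2 other genes of the list. In 14 endothelial, podocyte, stromal and immune genes the median was 0.665, 1 promoter was in all 6 lists and the highest Sham value was 53.6. The part of other segments or cell types in the values of the 8 genes was not tested.

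A further 18 genes of S2 and S3 had a median Sham promoter percentile of 61.5, and 11 of them were in all 6 lists. The highest were Rnf24 at 94.6 ± 1.22, Acy3, an aminoacylase gene, at 93.3 ± 0.652, and Cyp2e1, a cytochrome P450 gene, at 79.2 ± 4.57. No promoter region was found in any list at Slc22a8, Slc22a13, Slco1a1, Kap and Serpina1f. The first 3 encode organic anion transporters, and Kap is an androgen-regulated gene of the proximal tubule. Among all deposited peaks, Kap had a promoter region in 2 lists and Slco1a1 in 1. This list, like the 8 genes, held promoters near the top of the scale and promoters with no peak. Its median depended on the setting too. It was 68.8 with a promoter window of 2.5 kb, 32.9 with a cover of at least 50% and 0 among the 20000 strongest peaks. Ranked by fold enrichment it was 35.4, below the 46.4 of the 8 genes.

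**Figure D2:**
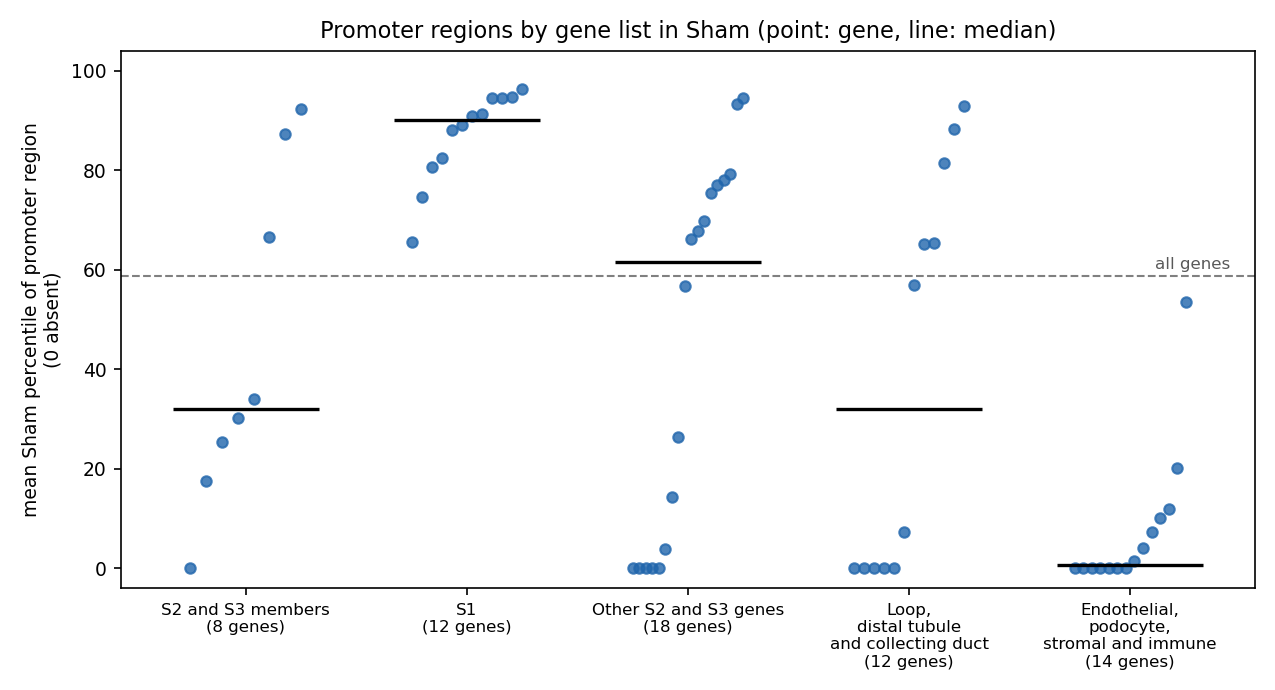
Mean Sham percentile of the promoter region (vertical axis, 0 for absent) of each gene (points) in 5 gene lists, with each list's median (black line) and the median of all protein-coding genes (dashed line, 58.7). The 8 S2 and S3 genes spread from 0 to 92.4 around a median of 32.1, and the 12 S1 genes lie between 65.6 and 96.2.

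Around the promoters, the 8 windows differed in how densely they were open. The median was 5.50 regions per 100 kb, beside 20.5 for the S1 genes and 6.38 for all protein-coding genes. Slc16a9 held 18.5 per 100 kb, more than 92.3% of protein-coding genes, and Slc22a7 held 15.1. At the other end Cyp7b1 held 1.89 per 100 kb and Slc22a30 held 3.64. Of the 47 regions, 26 were in all 6 lists (55.3%), beside 53.4% of all regions. By place, 9 were within 1 kb of a start, 10 in introns, 1 in an exon, 19 upstream and 8 downstream of the gene. Only 6 regions had a mean percentile of 80 or more over the 6 lists, and they lay in the windows of Slc7a13, Slc16a9, Aadat (2) and Acsm3 (2). The downstream one of Acsm3 lay 6 bp from the start of Eri2. The upstream one of Aadat lay 10708 bp from the Aadat start and 7974 bp from that of Gm10283.

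**Figure D3:**
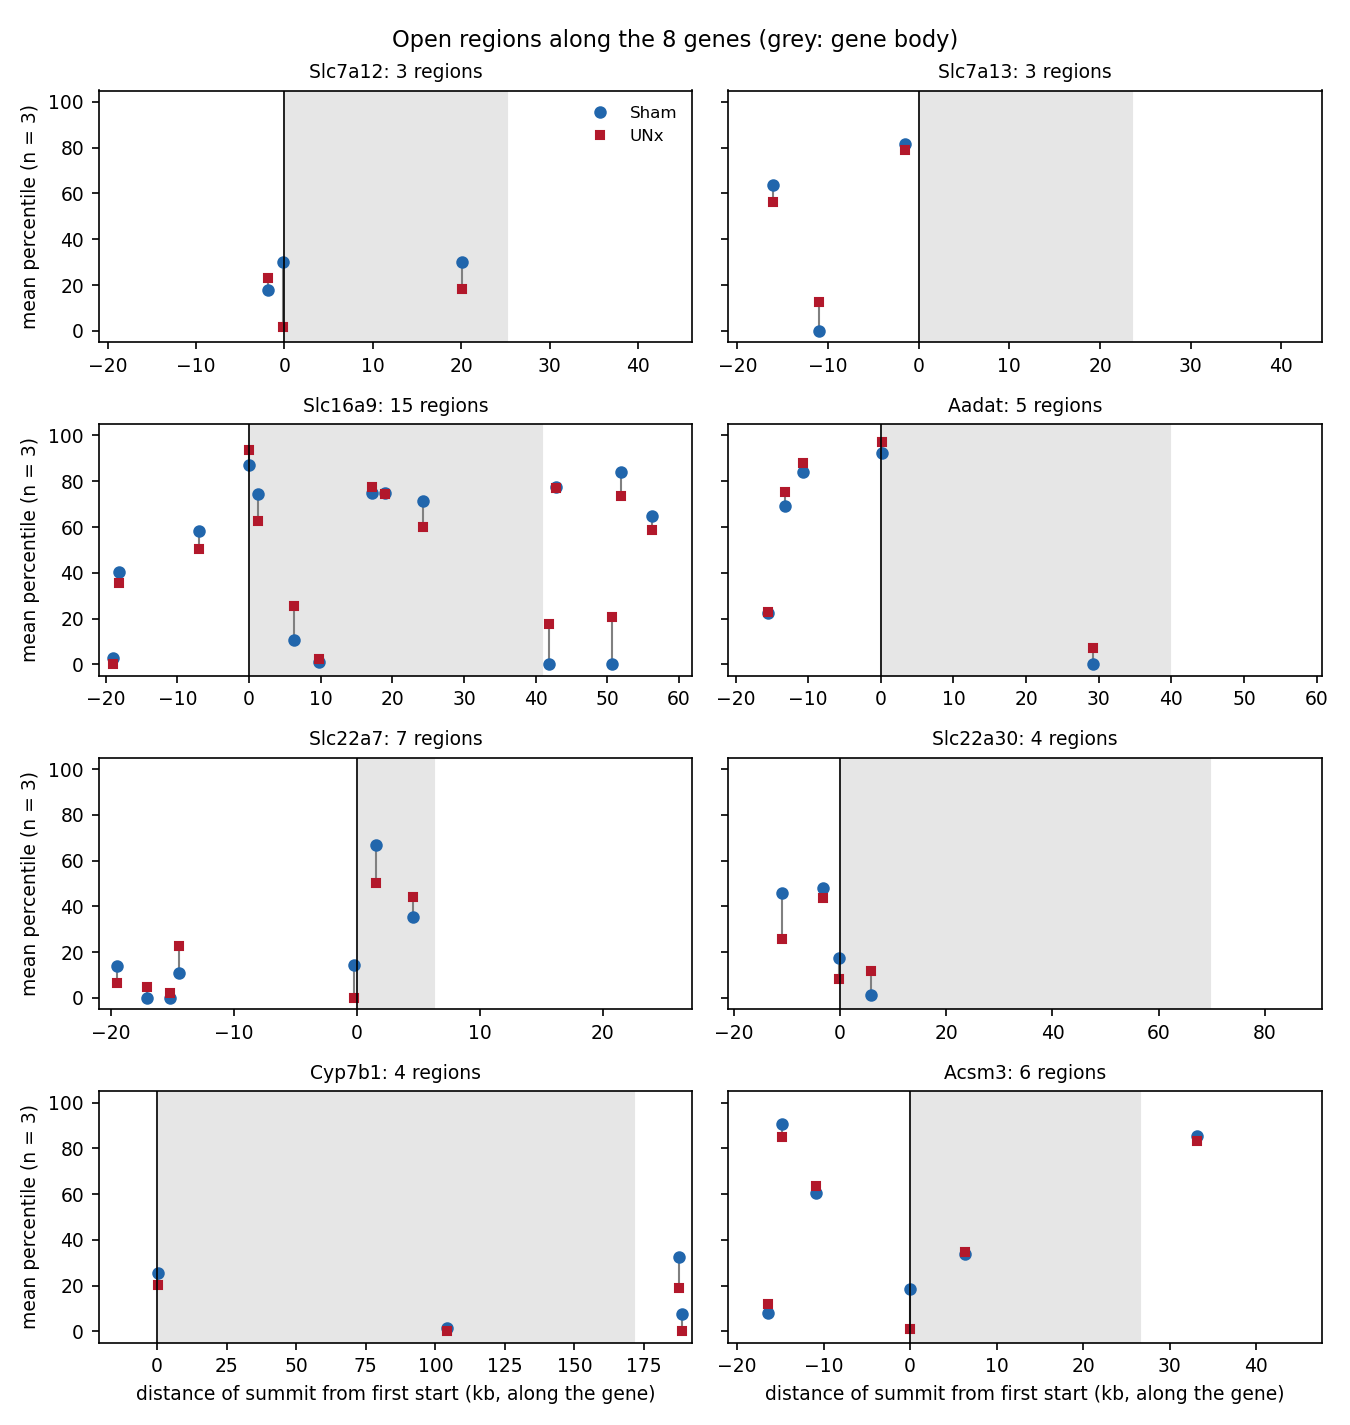
Mean percentile (vertical axis, n = 3 per group) of each open region against the distance of its summit from the gene's first start in kb, in the direction of the gene, for the 8 genes (grey, gene body). The strongest points lie at the start of Slc16a9 and Aadat but upstream of it at Slc7a13 and Acsm3, and the highest points of Slc7a12 and Cyp7b1 are at 30.1 and 32.5.

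The question of the study's comparison was what removal of 1 kidney does to open chromatin in the S1 tubules of the other. Of the 47 regions, 38 were in at least 3 lists and were tested with limma over all 74781 such regions, with Benjamini-Hochberg adjustment and a threshold of 0.05. None of the 38 passed, and the smallest adjusted p was 0.123. Over all tested regions 0.788% passed. An unadjusted p under 0.05 was found for 7 of the 38 (18.4%), 3 higher and 4 lower after UNx, against 18.6% of all tested regions, which is close to the share among the 8 genes. The libraries of the groups did not overlap at 10 of the 38 (26.3%), 4 higher and 6 lower, against 23.7% of all. Differences ran from -28.7 to 17.8 percentile points. Their median was -3.66, beside -0.011 over all tested regions, and it was 0.39 with all deposited peaks and 2.54 with only peaks of a −log10 q of at least 5. The 95% interval of a difference reached a median of 17.7 points to either side. It was much narrower at strong regions, such as 1.53 to 8.42 at the Aadat promoter.

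As a second measure, the mean percentile over the tested regions of each gene's window was compared in the same way over 17654 protein-coding genes. None of the 8 genes passed the threshold (smallest adjusted p = 0.371), against 0.357% of all, and 0 of 8 had an unadjusted p under 0.05, against 17.7% of all. The difference of the window means ranged from -11.7 points at Slc7a12 (95% interval -26.1 to 2.73) to 3.81 points at Aadat (-5.11 to 12.7). Slc16a9, with 12 tested regions, had the narrowest interval, -6.26 to 4.26 around -0.997.

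**Figure D4:**
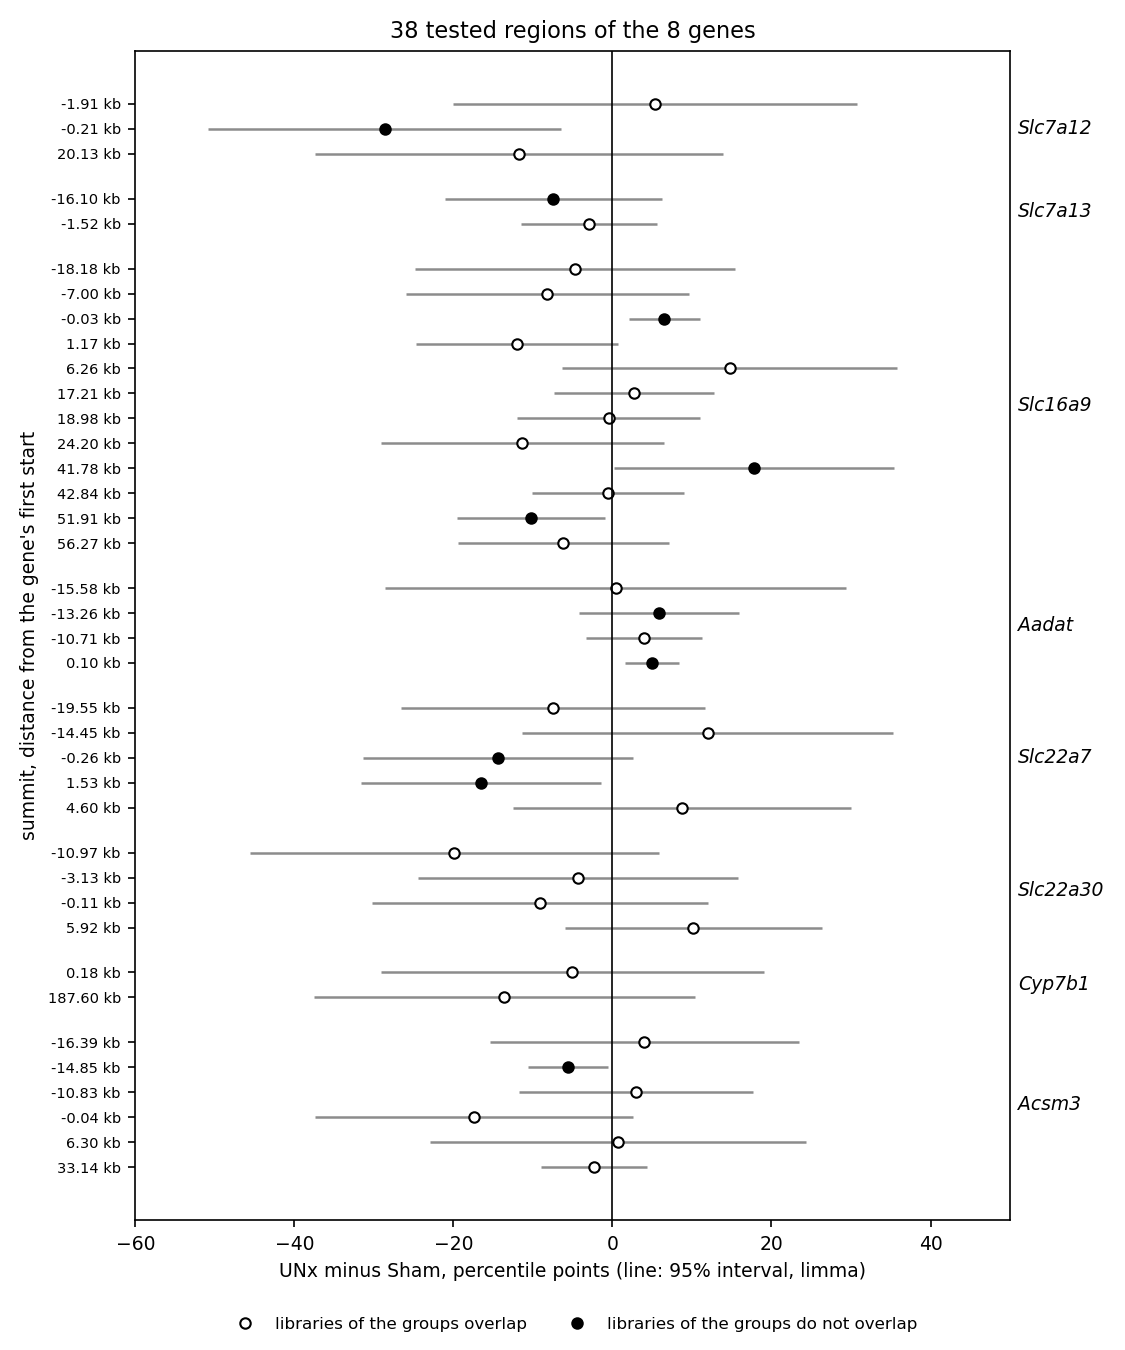
Difference in percentile, UNx minus Sham (horizontal axis, percentile points), with its 95% interval from limma for the 38 tested regions of the 8 genes, each labelled by its distance from the gene's first start. Filled points are the 10 regions whose Sham and UNx libraries do not overlap, 4 to the right of 0 and 6 to the left.

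Slc7a12 and Slc7a13 encode related transporters of the SLC7 amino acid family. Slc7a13 pairs with the subunit encoded by Slc3a1 to take up cystine and acidic amino acids in S3. Slc7a12 (chr3:14480697-14505830, plus strand, GRCm38) had 3 regions, each in 5 lists. Its promoter region (chr3:14480255-14480968, summit 212 bp upstream of the start) stood at 8.96, 46.1 and 35.3 in Sham 1 to 3 and at 0, 2.81 and 1.55 in UNx 1 to 3. All Sham libraries were above all UNx libraries, and Sham 1 lay closest to them. This difference of -28.7 ± 10.6 (SE; 95% interval -50.8 to -6.52) was the lowest of the 38, with an adjusted p of 0.159 in limma, so it did not pass the threshold. The authors' fold enrichment there was 4.67, 6.69 and 6.86 in Sham, and 4.88 and 4.62 in UNx 2 and 3. By this measure UNx 2 lay above Sham 1, and both UNx values lay below Sham 2 and 3. The 300 bases around the summit held 0 CG dinucleotides and 1 HNF1 motif match, ATTATTAAC. The intronic region 20.1 kb into the gene was the strongest by its mean over the 6 lists (24.2), with 18.2, 22.3 and 49.6 in Sham and 0, 20.8 and 34.1 in UNx. The groups overlapped there, with an adjusted p of 0.648 in limma, and the difference of -11.7 was -1.91 without Sham 3, -2.55 without UNx 1, -17.6 without Sham 1 and -19.6 without UNx 3. The remaining region, 1907 bp upstream, stood at 26.2, 17.2 and 9.98 in Sham and at 46.6, 0 and 22.8 in UNx, again with overlap.

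Slc7a13 (chr4:19818725-19842218, plus strand) had no peak within 1 kb of its start and none in its body. Its strongest region (chr4:19816742-19817563) had its summit 1522 bp upstream of the start, in the sequence printed above. It stood at 84.0, 82.3 and 79.1 in Sham and at 72.0, 77.9 and 86.5 in UNx. The groups overlapped, and the difference was -2.98 ± 4.09 (SE; 95% interval -11.6 to 5.60; adjusted p = 0.743 in limma). The authors' fold enrichment there lay between 10.9 and 16.9 in the 6 lists, higher than at the Slc16a9 promoter, where it lay between 6.55 and 9.28. A second upstream region, 16.1 kb before the start, stood at 58.8, 64.6 and 68.2 in Sham and at 52.2, 58.3 and 58.7 in UNx. The groups did not overlap, but Sham 1 (58.8) and UNx 3 (58.7) nearly met, and the adjusted p was 0.572 in limma. The third region was in UNx 1, at 37.6, and in no other equal-length list. The full deposited lists of Sham 3 and UNx 3 held it too.

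Slc16a9 encodes a carrier of the monocarboxylate transporter family that is known to move carnitine and creatine. Of the 8 genes it (chr10:70245100-70285968, plus strand) had the most regions, 15, of which 11 were in all 6 lists. The promoter region (chr10:70244521-70246018, summit 25 bp upstream of the start) stood at 88.5, 84.5 and 88.9 in Sham and at 93.5, 95.7 and 92.1 in UNx. All 3 UNx libraries were above all 3 Sham libraries. The difference was 6.50 ± 2.13 (SE; 95% interval 2.02 to 11.0), with the smallest adjusted p of the 38 regions, 0.123 in limma, which did not pass. A further 7 regions, 4 of them intronic and 3 downstream of the gene, had mean percentiles of 60 or more. The intronic ones 17.2 kb and 18979 bp from the start stood at 76.0 and 74.6 over the 6 lists. Downstream, the region 51.9 kb from the start stood at 80.2, 85.8 and 85.6 in Sham and at 77.9, 78.5 and 64.5 in UNx. Sham was above UNx in every library, against the direction at the promoter, and the adjusted p was 0.222 in limma. Upstream of the start, the regions at 18.2 kb and 6997 bp were in all 6 lists with Sham means of 40.3 and 58.5 and UNx means of 35.6 and 50.3. The intronic region at 6256 bp was the weakest of those in all 6 lists, at 6.38, 15.2 and 10.2 in Sham and at 30.4, 15.0 and 30.6 in UNx. The downstream region at 42.8 kb lay 237 bp from the start of Gm9877, a pseudogene, and stood at 77.2.

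A further Slc16a9 region, 41.8 kb from the start and downstream of the gene (chr10:70286631-70287381), was in all UNx lists and in no Sham list. It stood at 13.0, 8.11 and 32.2 in UNx, with a difference of 17.8 and an adjusted p of 0.264 in limma. The difference was 10.6 without UNx 3 and 31.0 with all deposited peaks. In the full deposited lists it was present in 5 of 6, with an authors' fold enrichment of 2.89 in Sham 1 and 2.70 in Sham 3, beside 3.87, 3.61 and 5.20 in UNx. Sham 1 and 3 held it only beyond their 77355 strongest peaks.

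Slc22a7 and Slc22a30 belong to the SLC22 family of organic anion transporters, of which Slc22a7 encodes OAT2. Slc22a7 (chr17:46432183-46438457, minus strand) had 7 regions, 2 of them in all 6 lists. The promoter region by the rule (chr17:46436786-46437128) had its summit 702 bp inside the gene from the second annotated start and 1530 bp from the first. It stood at 67.8, 72.6 and 59.4 in Sham and at 40.9, 50.9 and 58.6 in UNx. Sham was above UNx in every library, and Sham 3 and UNx 3 nearly met. The difference was -16.5 ± 7.18 (SE; 95% interval -31.6 to -1.42; adjusted p = 0.226 in limma), and it was -8.28 when peaks were ranked by fold enrichment. The region at the first start (chr17:46438421-46438853, summit 255 bp upstream) was in all Sham lists, at 7.12, 29.5 and 6.49, and in no UNx list. The difference of -14.4 had an adjusted p of 0.353 in limma and was -6.80 without Sham 2. In the full lists it was present in 5 of 6, with an authors' fold enrichment of 3.74 in UNx 1 and 3.61 in UNx 3. UNx 1 and 3 held it only beyond their 77355 strongest peaks. The exonic region 4596 bp from the first start stood at 34.8, 28.4 and 42.5 in Sham and at 27.5, 56.6 and 47.9 in UNx, with overlap. The other 4 regions lay 14450 to 19548 bp upstream, and 2 of them were in 1 UNx list each and in no Sham list. Among all deposited peaks these 2 were again in no Sham list, and the region 17107 bp upstream was in 2 UNx lists. Regions in all lists of one operation and none of the other made up 2 of the 47 (4.26%), beside 1.98% of all regions.

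Slc22a30 (chr19:8335371-8405111, minus strand), a rodent member of the family, had 4 regions, 1 of them in all 6 lists, over a window of 110 kb. The region at its start (chr19:8405049-8405656) stood at 12.5, 33.0 and 6.86 in Sham and at 0, 0 and 25.0 in UNx. The groups overlapped, and the difference was -9.12 with a 95% interval of -30.3 to 12.1 (adjusted p = 0.670 in limma). Single libraries decided its size, since it was -1.37 without Sham 2, -4.95 without UNx 1 or UNx 2, -14.4 without Sham 3 and -17.4 without UNx 3. All 6 full lists held this region. The strongest region lay 3127 bp upstream, at 57.8, 29.0 and 57.2 in Sham and at 36.5, 52.4 and 42.1 in UNx, with an adjusted p of 0.854 in limma. A region 11.0 kb upstream stood at 55.8, 31.8 and 49.6 in Sham and at 26.4, 51.2 and 0 in UNx (adjusted p = 0.400 in limma), and the difference of -19.9 was -6.96 without UNx 3 and -32.5 without UNx 2. The nearer upstream region was higher than the region at the start in 5 of 6 libraries and the farther one in 4, and the groups overlapped at each. The remaining region, in an intron 5921 bp into the gene, was in 1 Sham list at 4.09 and in the UNx lists at 0.0569, 13.3 and 21.2. The gene belongs to a cluster of similar genes, and whether reads could be placed uniquely there was not tested.

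Aadat encodes a mitochondrial aminotransferase that acts in lysine and kynurenine breakdown. It (chr8:60505932-60545677, plus strand) had the strongest promoter of the 8 genes. The promoter region (chr8:60505412-60506688, summit 96 bp after the start) stood at 93.3, 94.0 and 89.8 in Sham and at 96.8, 97.4 and 97.8 in UNx. All UNx libraries were above all Sham libraries. The difference was 4.98 ± 1.64 (SE; 95% interval 1.53 to 8.42), with an adjusted p of 0.124 in limma, so it did not pass the threshold. It was 7.84 when peaks were ranked by fold enrichment. The authors' fold enrichment was 11.4, 10.5 and 9.60 in Sham and 12.2, 12.7 and 13.8 in UNx. Upstream regions at 13.3 and 10.7 kb had means of 72.2 and 85.8 over the 6 lists, and each was higher in UNx by its mean. At 13.3 kb the libraries did not overlap (66.9, 70.4 and 70.6 in Sham, 72.6, 74.6 and 78.2 in UNx; adjusted p = 0.545 in limma), and at 10.7 kb they did. Only 1 region was found in the 39.7 kb gene body beyond the start. It was in 2 UNx lists, and in the full deposited lists in 4, of which 2 were Sham.

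Cyp7b1 encodes the oxysterol hydroxylase that prepares side-chain oxidised sterols for breakdown. Its long window (chr3:18071950-18243338 with 20 kb on either side, minus strand) held 4 regions. The promoter region (chr3:18242887-18244063, summit 183 bp after the start) stood at 24.1, 39.4 and 12.6 in Sham and at 33.2, 20.8 and 6.89 in UNx. The groups overlapped, with a difference of -5.05 ± 11.5 (SE; 95% interval -29.1 to 19.1; adjusted p = 0.858 in limma). The strongest region of the window, at 25.7 over the 6 lists, lay downstream of the gene and 1561 bp from the start of its neighbour Bhlhe22. It stood at 19.8, 42.0 and 35.6 in Sham and at 16.4, 33.9 and 6.19 in UNx (adjusted p = 0.554 in limma). The difference of -13.6 was -8.86 without Sham 2, -7.31 without UNx 3 and -21.2 without UNx 2. The gene body, 171 kb long, held 1 further region, in Sham 1 only.

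Acsm3 encodes a mitochondrial medium-chain acyl-CoA synthetase. Among its 6 regions (gene at chr7:119760923-119787513, plus strand), 4 were in all 6 lists. The strongest (chr7:119745686-119746472, 14849 bp upstream, printed above) stood at 90.5, 88.9 and 92.5 in Sham and at 85.9, 83.8 and 85.4 in UNx. Every Sham library was above every UNx library. The difference was -5.59 ± 2.37 (SE; 95% interval -10.6 to -0.621), with an adjusted p of 0.214 in limma, and it was -3.38 when peaks were ranked by fold enrichment and -3.65 with all deposited peaks. A second upstream region, 10.8 kb before the start, stood at 60.4 ± 8.23 (SD, n = 3) in Sham and 63.4 ± 10.2 in UNx. The start itself was weak, as the region 44 bp upstream of the first start was in 3 lists, at 39.3 and 16.6 in Sham 1 and 2 and at 3.56 in UNx 2. The promoter region by the rule lay near another annotated start, 6297 bp into the gene. It stood at 47.5, 11.4 and 43.1 in Sham and at 29.1, 43.5 and 31.5 in UNx. The groups overlapped, and the difference was 0.69 with a 95% interval of -23.0 to 24.3 (adjusted p = 0.984 in limma). The downstream region at 33.1 kb, with a mean percentile of 85.3 in Sham, lay 6 bp from the start of Eri2, so it was the promoter of a neighbour. Among the 47 regions, 4 had their summit within 1 kb of the start of another gene.

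Over the promoters alone, 7 of the 8 genes had a tested promoter region. Slc16a9 and Aadat were higher and Slc7a12 and Slc22a7 lower in UNx with groups that did not overlap, and the groups of the other 3 overlapped. These 4 of 7 are the promoters with an unadjusted p under 0.05 in limma as well. Over all tested regions, 23.7% did not overlap and 18.6% had such a p. Those shares are over regions of every kind and no share over all promoters is given, so 4 of 7 cannot be read as an excess. The 8 genes were also chosen with earlier results known. None of the 7 promoters passed the threshold. Of the other S2 and S3 genes, 12 had a tested promoter region, 0 passed (smallest adjusted p = 0.225 in limma), 1 had an unadjusted p under 0.05 and 0 had groups that did not overlap. The 12 S1 promoters gave 0 past the threshold as well (smallest adjusted p = 0.214), with 2 at an unadjusted p under 0.05, both lower, and 2 with groups that did not overlap. In the loop, distal tubule and collecting duct list, 7 promoters were tested and 0 passed (smallest adjusted p = 0.131 in limma). Of these 7, 2 had an unadjusted p under 0.05, both lower, and 3 had groups that did not overlap. The endothelial, podocyte, stromal and immune list had 4 tested promoters. Of these, 0 passed, 0 had such a p and 1 had groups that did not overlap. Whether the 8 genes differed from any of these lists in their response was not tested.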

How the data were processed

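The members and gene lists were chosen with earlier results of these data known. The authors deposited 1 narrowPeak list per library, with the summit's fold enrichment (a ratio to the background of the peak caller) and its −log10 p and −log10 q values. Replicates were not pooled. The submitters' processing notes name cutadapt 3.4, Bowtie, SAMtools, Picard, MACS2 2.2.7.1 and the build mm10. Caller settings and the filter on the lists are not given in the sources used here. All intervals lay within GRCm38 chromosomes, and GENCODE M21 gave genes and starts.

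The lists held 77355 to 100999 distinct intervals, each taken with its strongest summit. Each list was reduced to its 77355 strongest by −log10 q, the length of Sham 2's list, and ranked as percentiles. Merging intervals that shared 1 bp or more gave 99359 regions, and those found in at least 3 lists (74781) were tested with limma 3.58.1 in R 4.3.3 (trend and robust variance, group only, two-sided, Benjamini-Hochberg). An absent region counts as 0 in that test. Simulated ranks, shifted only at regions of middle percentile, were also fitted. Their outcome is not given here, and they do not bear on strong or absent regions. Named for each gene were the promoter region, the strongest region, the region of smallest p and any region in all lists of only one operation; some further regions were named after their values were seen. Of the other S2 and S3 genes, the 3 highest and those with no promoter peak were named. Alternatives were other list lengths, rankings, overlaps, windows, variance models, GC-corrected ranks and leaving out each library.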

Additional observations from a re-analysis of the deposited data

How the results depend on the processing

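No region and no gene window of the 8 genes passed the threshold under any of the 22 alternatives to the limma test. The smallest adjusted p of a region was 0.0518 in limma with a flank of 50 kb. Several alternatives called few regions anywhere: 2 of 74781 passed with GC-corrected ranks, 4 of 74781 without UNx 1 and 3 of 74925 by fold enrichment. Others called more, such as 1580 of 74781 with normal scores. Where few regions passed anywhere, a count of 0 among the 8 genes says little. No pairing by replicate number was seen: the deviations of same-numbered libraries correlated at 0.008, -0.100 and -0.050 across regions. With 3 libraries per group this cannot exclude a pairing. With the replicate block 0 regions and 0 gene windows of the 8 genes passed, against 56 of 74781 regions and 0 of 17654 gene windows in all. The smallest adjusted p of the regions of the 8 genes was 0.162 in limma. The number of regions in all lists was 26, and it was 10 in gene bodies only, 47 with a flank of 50 kb, 5 among the 20000 strongest peaks and 15 with a cover of at least 50%. Leaving out each library gave 26 to 28 regions in all of the remaining lists, a count that cannot fall below 26. The median Sham promoter percentile of 32.1 was 41.2 with all deposited peaks, 0 among the 20000 strongest, 46.4 when ranked by fold enrichment, 25.7 with a cover of at least 50% and 50.3 with a promoter window of 2.5 kb, which takes in the upstream region of Slc7a13. Leaving out each Sham library, with the promoter regions kept, gave 30.6 to 34.0, and the UNx lists do not enter this median. Within Sham 1, 2 and 3 alone the median over the 8 genes was 35.8, 42.8 and 39.2, each above 32.1.

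Of 16 named regions, 12 kept the sign of their difference under all alternatives that gave them a value. Part of this was fixed in advance. The replicate block and the fit without trend and robust variance leave the difference unchanged. A region whose groups do not overlap cannot turn when a library is left out. The Acsm3 region near its later start turned to -4.63 with array weights and -0.0042 in normal scores, and leaving out each library gave -10.6 to 7.44 (negative without Sham 2 and without UNx 2). The Cyp7b1 promoter turned to 0.39 with all deposited peaks, 2.67 with a −log10 q of at least 5 and 5.35 with a cover of at least 50%, and leaving out each library gave -11.5 to 1.99 (positive without Sham 2 and without UNx 3). The Slc22a30 region 3127 bp upstream turned to 1.31, 3.32 and 24.4 under these 3 settings, and leaving out each library gave -13.9 to 0.57 (positive without Sham 1 and without Sham 3). The Slc7a13 region 1522 bp upstream ranged from -6.84 to 0.41 when each library was left out (positive without UNx 1). Among the 20000 strongest peaks, where 1 percentile point spans fewer peaks, the differences were 25.1 at the Slc16a9 promoter, 19.2 at the Aadat promoter and -21.6 at the Acsm3 region 14849 bp upstream, none past the threshold. The cause of the turned signs was not tested. Read depth is unknown, and with 3 libraries per group the intervals limit what could be detected.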
